A study of Mus musculus with 3 samples.

Results

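Malat1, Neat1, Meg3, Snhg11, Miat and Rmst are long noncoding RNAs known for their place in the nucleus, and they were followed here through every cell class of a single-cell RNA sequencing study of the mouse arcuate nucleus. They were chosen by name: each symbol matched 1 gene, so the 6 members stood among 31253 genes listed in the count matrices. The tissue was punched from male C57BL/6JRj mice of 5 to 6 weeks, and 6 mice were pooled into 1 library for each of 3 diets. The chow group (SC) ate standard chow for 15 days from weaning, the 5-day group ate chow for 10 days before a diet high in fat and sugar (HFHS, labelled 58%, with no word on what the percent refers to) for 5 days, and the 15-day group ate HFHS for 15 days. No genotype or allele other than the strain is given, and the libraries share strain, sex, age and tissue. With 1 library for each diet there is no replicate check between diets and no p-value is given: a difference between libraries holds the diet, the pool of mice and the preparation together. Where 3 values are given in a row they stand for the chow, 5-day and 15-day libraries, in that order.

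The libraries held 7116, 6204 and 7823 deposited barcodes, and 4825, 4041 and 5157 cells were kept after limits on genes (at least 500), mitochondrial UMIs (at most 20%) and doublet scores. UMIs are unique molecular identifiers, each counted once for a captured RNA molecule. The kept cells carried 49003882, 42943491 and 35083129 UMIs, with medians of 5131, 5779 and 4130 UMIs per cell, so the 15-day library was the shallowest. Clustering without the 6 members gave 31 clusters, of which 23 were named from marker genes, and 14% of the kept cells stayed unnamed. Classes that reached 100 cells in every library were kept for comparison, and these 10 were neuron-like, astrocyte-like, tanycyte-like, ependymal-like, microglia-like, endothelial-like, pericyte-like, oligodendrocyte-like, OPC-like (oligodendrocyte precursor) and COP-like (committed precursor) cells. Each of the 10 classes had the highest summed level of its own marker set. The clusters were named from these markers, so this is no separate check of the names. Pericyte-like cells were also highest for the vascular smooth muscle set, at 12734, 12334.5 and 21064 CPM, a unit defined with the levels by class below. COP-like cells held the oligodendrocyte set at 44813, 47262 and 35495 CPM, below oligodendrocyte-like cells. A subcluster of 70 neuron-like cells was led by Npy and Agrp, peptides of the AgRP neurons that define the arcuate nucleus. Pairs of libraries shared 13, 72 and 85 barcodes, which touched 191 kept cells.

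Most messenger RNAs leave the nucleus, whereas these RNAs are known, to differing degrees, to be held there. Malat1 gathers in nuclear speckles, the bodies that store splicing factors, and Neat1 is the scaffold of paraspeckles, which hold RNA-binding proteins such as Nono and Sfpq. Meg3 is transcribed from the maternal copy of the imprinted Dlk1-Dio3 locus and has been reported to bind Polycomb proteins. Snhg11 hosts small nucleolar RNAs in its introns, Miat (also called Gomafu) carries repeats that splicing factor 1 binds, and Rmst is known to bind Sox2 in neural progenitors. In a single-cell library, a cell that lost cytoplasm keeps its nuclear RNA, so these genes are often read beside the mitochondrial share of a barcode.

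All 6 genes lie on autosomes of GRCm38, in the GENCODE vM21 annotation. Malat1 (ENSMUSG00000092341) lies at chr19:5795690-5802672 on the minus strand, and Neat1 (ENSMUSG00000092274) lies 22035 bases from it at chr19:5824708-5845478 on the minus strand. The longest annotated transcript of each is a single exon, of 6983 bases for Malat1 and 20771 bases for Neat1. Meg3 (ENSMUSG00000021268) lies at chr12:109541001-109571726 on the plus strand and Rmst (ENSMUSG00000112117) at chr10:92071037-92165170 on the minus strand. Snhg11 (ENSMUSG00000044349) lies at chr2:158375638-158386145 on the plus strand and is annotated there as protein coding, whereas the other 5 are annotated as long intergenic noncoding RNAs. Miat (ENSMUSG00000097767) lies at chr5:112213228-112229395 on the minus strand, and Gm26953 on the opposite strand within it had 41 UMIs against 11429 of Miat (0.359%).

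The library kit primes on runs of A, which a messenger RNA carries as its poly(A) tail, so A-rich stretches, at an RNA's end or within it, are where a molecule can be captured. Malat1 is known to end without a poly(A) tail, in a stretch of A encoded in the genome, and that stretch is shown with the 12 A in capitals, from chr19:5795928-5796079 (an exon of Malat1-201, minus strand).
Malat1-201: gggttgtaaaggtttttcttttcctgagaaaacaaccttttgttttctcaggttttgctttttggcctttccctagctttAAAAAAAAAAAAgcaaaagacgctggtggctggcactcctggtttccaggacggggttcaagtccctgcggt
The run begins at base 6674 of the 6983, with 298 bases after it. A run of at least 12 A within the last 310 bases was found in 1.47% of the 130559 annotated transcripts of at least that length, and its reverse complement in 1.1%. The last 40 bases of a transcript of 4 further members are shown next, with the poly(A) signal AATAAA in capitals where it was found.
Neat1-202, chr19:5842307-5842346, minus strand: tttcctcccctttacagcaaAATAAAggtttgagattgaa
Meg3-207, chr12:109571682-109571721, plus strand: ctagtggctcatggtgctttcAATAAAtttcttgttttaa
Rmst-205, chr10:92071037-92071076, minus strand: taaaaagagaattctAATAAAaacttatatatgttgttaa
Miat-205, chr5:112213228-112213267, minus strand: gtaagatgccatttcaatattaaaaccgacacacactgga
AATAAA stood in the last 40 bases of 25.8% of 141704 annotated transcripts, and its reverse complement TTTATT in 3.19%. The last 40 bases of Miat-205 do not hold these 6 letters, and other forms of the signal were not searched. The transcripts shown were picked by name, with no fixed rule. Neat1, Meg3, Rmst and Miat have 4, 11, 14 and 6 annotated transcripts, and only Miat-205 is the longest of its gene. The share over all transcripts is therefore no measure of how unusual the signal is in those shown. Miat is known for repeats of TACTAAC, the letters of the branch point that splicing factor 1 reads, and the stretch with 3 of its 6 copies is shown with each copy in capitals, from chr5:112216742-112216822 (an exon of Miat-205, minus strand).
Miat-205: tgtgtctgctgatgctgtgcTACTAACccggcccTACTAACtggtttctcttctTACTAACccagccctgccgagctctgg
The 6 copies did not overlap, and 6 or more copies were found in 2 of the 761 transcripts within 10% of its length (0.263%), Miat-205 included. At least 1 copy was found in 19.4% of them, and the reverse complement GTTAGTA in 22.9% of them and nowhere in Miat-205.

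Malat1 was the most counted gene of all 3 libraries. It took 3.71, 3.74 and 4.54% of the UMIs of the kept cells, and 92.1, 89.4 and 95.8% of the cells had at least 1 of its UMIs. By UMIs, Meg3 ranked 47, 51 and 58, Snhg11 117, 139 and 156, Rmst 931, 1024 and 1297, Neat1 1596, 1540 and 1877 and Miat 3240, 3414 and 4053 among all genes of each library. These ranks count captured ends, with no scaling by length. The order of the 6 was the same in all 3 libraries. Neuron-like cells supplied 93.2, 92.7 and 88.7% of the Snhg11 UMIs and 70.2, 67.2 and 67.2% of the Meg3 UMIs, but 7.29, 6.13 and 5.79% of the Malat1 UMIs and 3.82, 2.5 and 1.82% of the Neat1 UMIs.

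The levels by class had Malat1 highest on average in astrocyte-like cells, Neat1 in oligodendrocyte-like cells, Rmst in tanycyte-like cells and the other 3 RNAs in neuron-like cells. Levels are given as CPM, the UMIs of a gene in each 1e6 UMIs of a class and library, and errors are SDs over the 3 libraries (n = 3), which hold the diet as well. Over all 10392 genes that reached 30 CPM in at least 3 of the 30 class-by-library values, 12.1% had all 3 neuron-like values above every value of the other 9 classes. Meg3, Snhg11 and Miat were 3 members of 6 that met this. The classes were built from other genes of the same cells, so the counts describe the classes and are not tested.

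Malat1 was highest in astrocyte-like cells, at 92917, 85834 and 89696 CPM, and in oligodendrocyte-like cells, at 81876, 78076 and 96854 CPM. The means were 89482 ± 3546 CPM and 85602 ± 9928 CPM, and the ranges of these 2 classes overlapped. Pericyte-like cells (65238 ± 4582 CPM), COP-like cells (59907 ± 7836 CPM) and OPC-like cells (46533 ± 4546 CPM) came next, wholly below the oligodendrocyte-like class, and their neighbours in this order overlapped. Neuron-like cells had 30186, 22081 and 25484 CPM and tanycyte-like cells 21608, 24879 and 30984 CPM. These lay wholly below the OPC-like class. Neuron-like, tanycyte-like, endothelial-like (22909 ± 2868 CPM) and microglia-like cells (20835 ± 1160.2 CPM) could not be ordered beyond the spread of neighbours. Ependymal-like cells were lowest, with 11215, 11437 and 16883 CPM and no overlap with the class above. The median share of Malat1 in a cell's UMIs was 8.94% in astrocyte-like and 0.128% in ependymal-like cells of the chow library.

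Neat1 was highest in oligodendrocyte-like cells, where the libraries held 317, 326 and 262 CPM (301 ± 34.6 CPM), above every value of every other class. Astrocyte-like (146, 126 and 123 CPM), endothelial-like (104, 126 and 114 CPM) and microglia-like cells (104, 108 and 90 CPM) followed with overlapping ranges, and microglia-like cells overlapped tanycyte-like cells in turn. Tanycyte-like, pericyte-like, ependymal-like and COP-like cells had means of 74.6, 63, 48.8 and 42.7 CPM, each overlapping its neighbour. Neuron-like cells had 46.5, 26.7 and 16.3 CPM, overlapping COP-like cells, and OPC-like cells were lowest without overlap at 7.21, 9.68 and 12.8 CPM. Within the oligodendrocyte line, Neat1 summed by class therefore differed between OPC-like, COP-like and oligodendrocyte-like cells without overlap. Malat1 overlapped between OPC-like and COP-like cells. The oligodendrocyte-like class was mixed in Neat1: clusters 14 and 23 had 330 and 411 CPM over all libraries. Its cluster 16 (64 cells, median 30394.5 UMIs) had 11.1 CPM, within the range of the OPC-like values. A Neat1 UMI was found in 65.8% to 79% of oligodendrocyte-like cells and in 3.85% to 6.18% of OPC-like cells. With every cell thinned to 1000 UMIs, and shallower cells left out, those shares were 21.7% to 27.1% and 0.392% to 1.14%. The median depths were 14414, 15974 and 9661 UMIs in oligodendrocyte-like and 6814, 8352 and 5260 UMIs in OPC-like cells.

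Meg3 stood at 12276, 9049 and 8879 CPM in neuron-like cells, a mean of 10068 ± 1914 CPM. Tanycyte-like cells came second with 1194, 1429 and 1455 CPM and OPC-like cells next with 762, 754 and 823 CPM, with no overlap between these 3 classes. Pericyte-like (361, 349.7 and 230.1 CPM) and ependymal-like cells (299.7, 315 and 253 CPM) overlapped each other. The remaining 5 classes had means between 29.5 CPM, in oligodendrocyte-like cells, and 84.6 CPM, in COP-like cells. On the log2 scale, neuron-like cells exceeded the unweighted mean of the other 9 classes by 4.89 ± 0.33 (SD, n = 3 libraries).

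Snhg11 was the most neuronal of the 6, at 8665, 6611 and 6094 CPM in neuron-like cells (7123 ± 1360.1 CPM), 6.81 ± 0.41 (SD, n = 3) above the mean of the other classes on the log2 scale. OPC-like cells had 168, 190.4 and 243 CPM, the second class, with no overlap with the third. Tanycyte-like cells had 55.2, 75.5 and 96.3 CPM, and the other 7 classes had means between 30.8 and 54.4 CPM with overlapping neighbours. In cells thinned to 1000 UMIs, a Snhg11 UMI was found in 84% to 92.4% of neuron-like cells, 11.8% to 20.1% of OPC-like cells and 2.92% to 6.00% of microglia-like cells, which are not known to make it. Unthinned, the microglia-like share was 12.8% to 16.9% and the neuron-like share 77.1% to 87.9%, at median depths of 5387, 4962 and 4789 and 5745, 5053 and 4626 UMIs.

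Miat was far lower in UMIs and had the same leading class, with 324, 238 and 178 CPM in neuron-like cells (247 ± 73.4 CPM). Tanycyte-like (63, 73.3 and 66 CPM) and ependymal-like cells (65, 73.6 and 61.2 CPM) overlapped each other, and astrocyte-like (54.5, 38 and 53 CPM) and OPC-like cells (28.4, 20.7 and 21.6 CPM) lay below them without overlap. Oligodendrocyte-like, microglia-like, endothelial-like and pericyte-like cells each had a mean under 3 CPM. In the 4 classes under that level a Miat UMI was found in at most 3.12% of the cells of a library, against 51.5% to 65.2% of neuron-like cells. Thinned, the neuron-like share was 20.2% to 26.3% and the microglia-like share 0% to 0.325%.

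Rmst had another order. It was highest in tanycyte-like cells, the glia that line the floor of the third ventricle, at 401, 441 and 385 CPM (409 ± 28.9 CPM), above every value of every other class. Astrocyte-like (187, 169 and 141 CPM), neuron-like (195, 155 and 111 CPM) and ependymal-like cells (139.8, 102 and 117 CPM) followed and could not be ordered beyond the spread of neighbours. The other 6 classes had means of at most 3.73 CPM, and the 15-day pericyte-like cells had 0 Rmst UMIs, which allows up to 6.51 CPM (3 counts, counting error only). A Rmst UMI was found in 83.4% to 93.3% of tanycyte-like cells and, thinned, in 32.3% to 40.2%. In microglia-like cells, which are of another lineage, the shares were 0.957% to 1.58% and, thinned, 0.162% to 0.412%, at median depths of 12322, 13659 and 7528 UMIs in tanycyte-like cells and those given above in microglia-like cells. The neuron-like values rest on cluster 17, which is named or not by a choice described with the diet ratios. With it unnamed, the neuron-like level stood above the mean of the other classes by 5.80 for Snhg11, 3.51 for Meg3 and 1.02 for Miat on the log2 scale, against 6.81, 4.89 and 3.27 with it, and Rmst went from 0.93 to -0.44. Then 2 members had all neuron-like values above every other class.

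**Figure D1:**
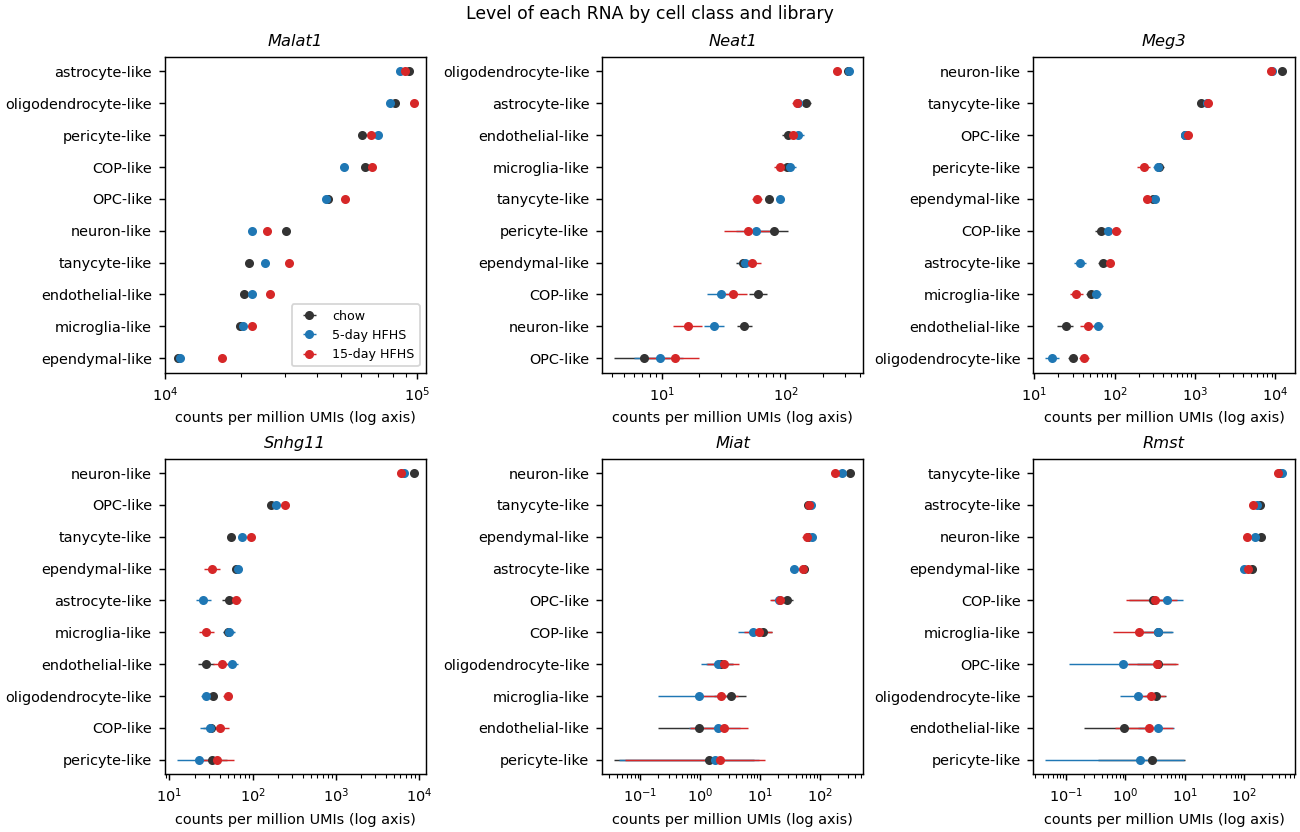
Level of each RNA (x axis, CPM, log axis) in 10 cell classes (y axis, ordered by mean) for the chow (black), 5-day HFHS (blue) and 15-day HFHS (red) libraries, with 95% Poisson intervals that cover counting error only and are often narrower than the point. Meg3, Snhg11 and Miat are highest in neuron-like cells, Malat1 in astrocyte-like, Neat1 in oligodendrocyte-like and Rmst in tanycyte-like cells; the value of 0 for Rmst in 15-day pericyte-like cells is not drawn.

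RNA set free from broken neurons can reach other droplets, and the levels of Meg3 and Snhg11 outside neuron-like cells were therefore set beside those of other neuronal genes. Free RNA from 1 source keeps its genes in 1 ratio in every class. In neuron-like cells there were 1.42, 1.37 and 1.46 Meg3 UMIs for each Snhg11 UMI, and in astrocyte-like cells 1.39, 1.44 and 1.37, with 95% counting intervals of 1.1 to 1.75, 1.1 to 1.89 and 1.15 to 1.62 in the latter. The astrocyte-like intervals held the neuron-like ratios of all 3 libraries. In tanycyte-like cells the ratio was 21.6, 18.9 and 15.1, in OPC-like cells 4.53, 3.96 and 3.39 and in ependymal-like cells 4.74, 4.69 and 7.73, and the interval of each library lay above the neuron-like ratio. It was also higher in COP-like (2.13, 2.68 and 2.55) and pericyte-like cells (11.0, 15.3 and 6.24), and lower in oligodendrocyte-like cells (0.91, 0.60 and 0.82). As a percent of its neuron-like level, Meg3 stood at 14% in tanycyte-like cells, where the median of 12 neuronal genes such as Snap25 and Syt1 was 1.48%. In OPC-like cells Meg3 stood at 7.94% against a median of 11.8%, and in astrocyte-like cells at 0.658% against 5.43%. Snhg11 stood at 1.12% in tanycyte-like cells, 2.93% in OPC-like cells and 0.676% in astrocyte-like cells, below the median of the neuronal genes in each of these 3 classes. Meg3 and Snhg11 were below that median in microglia-like, endothelial-like and oligodendrocyte-like cells too. In COP-like cells they stood at 0.877% and 0.50% against 2.26%, and in pericyte-like cells at 3.13% and 0.443% against 5.18%. Snhg11 stood at 0.762% in ependymal-like cells against 1.92%, where Meg3 stood at 2.93%. No expression is read from levels below the median in any of these classes, whatever the ratio of Meg3 to Snhg11.

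Across clusters the Malat1 level varied far more than across classes, from 1158 CPM in ependymal-like cluster 10 to 105204 CPM in astrocyte-like cluster 0. Clusters 1, 10, 12, 13 and 25 had at least 95.1% of their cells under 1% Malat1, and their medians lay between 902 and 1625 UMIs per cell. Deeper unnamed clusters were low in Malat1 too. Cluster 30 (36 cells, median 5429 UMIs) had 100% of its cells under 1%, and cluster 29 (44 cells, median 24015.5 UMIs) had 88.6%. Ependymal-like cells fell into a deep cluster 6 (median 15460 UMIs) with 12445, 12544 and 18533 CPM of Malat1 and a shallow cluster 10 (median 1520 UMIs) with 970.2, 1083 and 1723 CPM. Microglia-like cells fell into a deep cluster 5 with 22304, 23309.8 and 23530.3 CPM and a shallow cluster 13 with 2272, 2024 and 4404 CPM. In neuron-like cells, cluster 17 had 39814, 38378 and 36268 CPM and the shallow cluster 25 (median 902 UMIs) had 1071, 1138 and 2431 CPM. In each of these 3 pairs the shallow cluster was lower without overlap. The deepest neuron-like clusters were not the highest: cluster 18 (median 21894 UMIs, 5.57% mitochondrial) had 10666, 10063 and 17437 CPM, below cluster 17 (5028 UMIs, 13.4%) in every library.

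Some of the other members were also low in some shallow clusters. Neat1 stood at 117, 124 and 96.1 CPM in microglia-like cluster 5 and 2.3, 9.56 and 11.5 CPM in cluster 13. Meg3 stood at 16408, 16768 and 16182 CPM in neuron-like cluster 17 and at 262, 213 and 197 CPM in cluster 25, and Snhg11 at 11189, 11139 and 9986 and 299, 284 and 273 CPM. In microglia-like cells Snhg11 went the other way, with 78.1, 66.9 and 64.9 CPM in shallow cluster 13. Deep cluster 5 had 47.5, 49.8 and 24.9 CPM of it, in a class from which no expression of Snhg11 is read. Shallow depth alone did not go with a low level: OPC-like cluster 20, with a median of 1446 UMIs, had 44608, 45463 and 39105 CPM of Malat1, though 55.8% of its cells had under 1%, and the deep OPC-like cluster 21 had 44333, 43164 and 54093 CPM. Astrocyte-like cluster 0, the highest in Malat1, had a median of 2064 UMIs and 13.2% mitochondrial UMIs. Over the 31 clusters, Spearman correlations of the Malat1 level with the median mitochondrial percent and with the median UMIs were 0.24 and 0.20, given as a description, since clusters share libraries.

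**Figure D2:**
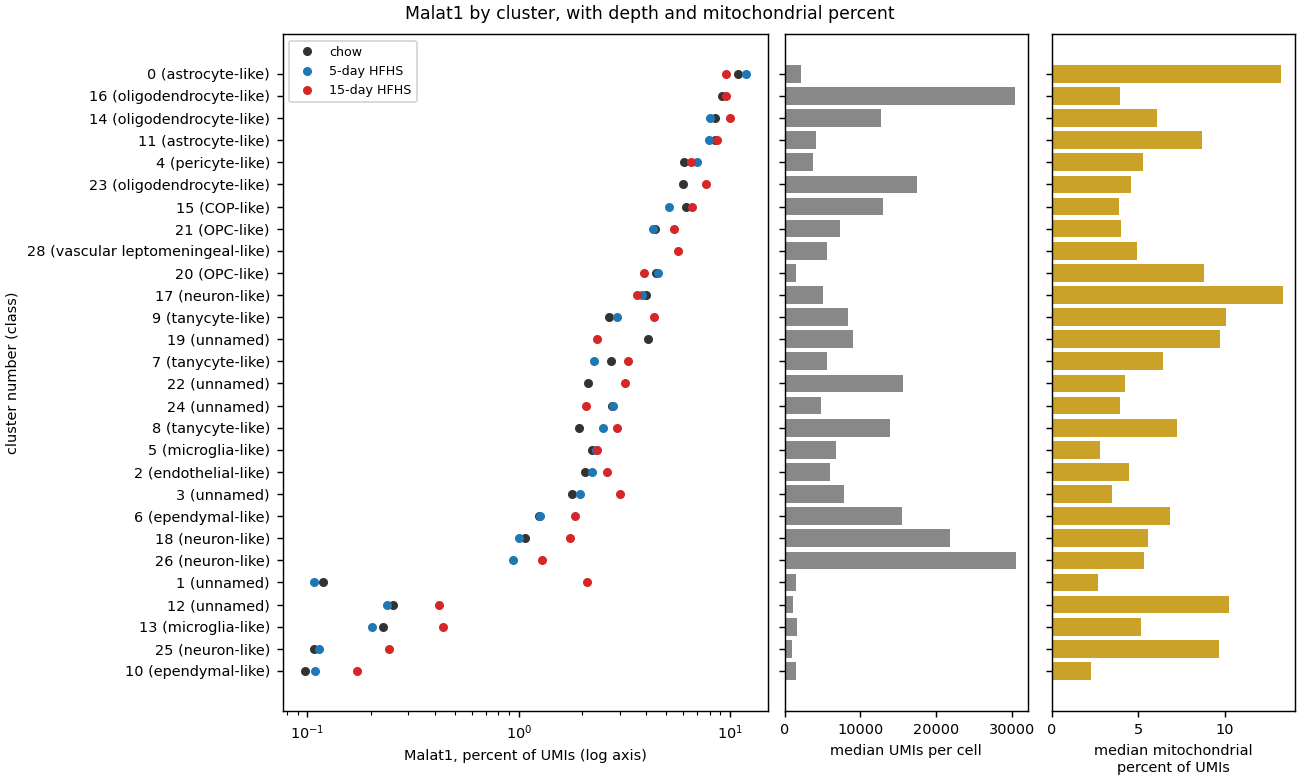
Malat1 as a percent of UMIs (left, log axis) for each cluster of at least 60 cells (y axis, cluster number and class) in the chow (black), 5-day HFHS (blue) and 15-day HFHS (red) libraries, with the median UMIs per cell (middle) and the median mitochondrial percent (right) of the cluster over all libraries. The lowest clusters, 10, 25, 13 and 12, have short bars of median UMIs, cluster 20 is shallow and high in Malat1, and in cluster 1 the 15-day library lies far above the other 2.

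Within cells of a named class, the share of Malat1 varied widely from cell to cell. In the chow library the highest single-cell share was 61% in COP-like cells, 43.2% in neuron-like cells and 33.1% in astrocyte-like cells. The share of cells with less than 1% Malat1 was 1.32, 2.97 and 0.576% in astrocyte-like cells and 2.75, 0.568 and 0.459% in oligodendrocyte-like cells. It was 77.1, 76.2 and 68.3% in ependymal-like cells and 41.1, 46.9 and 23.4% in microglia-like cells. Microglia-like cells under 1% Malat1 had medians of 1872, 1584 and 2162 UMIs, and those over it 6815, 8038 and 5439.5 UMIs. Tanycyte-like cells went the other way, with medians of 33533, 59280 and 24131 UMIs under 1% Malat1 and 11145, 13210 and 7278 UMIs over it.

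Depth was then compared with class and library held, by setting the third of cells with the most UMIs against the third with the fewest. This contrast is a mean over classes of the log2 ratio of the level in CPM of nonmitochondrial UMIs. Over all 13972 genes with a value, 1.55% were at least 1.5 times higher and 1.72% at least 1.5 times lower in each of the 3 libraries. Of the 6 members 0 were past in either direction by this unweighted mean. Malat1 gave 0.33, 0.61 and 0.16 over 10, 10 and 10 classes (mean 0.37 ± 0.23, SD, n = 3 libraries), and Snhg11 gave -0.91, -0.38 and -1.11 (mean -0.80 ± 0.38). The means of Neat1, Meg3, Miat and Rmst were 0.40 ± 0.49, -0.35 ± 0.53, -0.33 ± 0.37 and 0.54 ± 0.40, around an all-gene median of 0.00. These directions rest on the weight of each class. A Mantel-Haenszel ratio, which gives classes with more counts more weight and was added after seeing the data, turned Malat1 to -0.28, -0.19 and -0.13, Neat1 to -0.79, -0.71 and -0.95 and Rmst to -0.78, -0.52 and -0.49, below 0 in every library. By that ratio Snhg11 gave -0.37, 0.15 and -1.03, with the 5-day library above 0, and Miat -0.91, -0.85 and -1.38, and Neat1 and Miat were past as lower. A mean near 0 stood for classes that went opposite ways: for Malat1, 15 of 30 class-and-library values were above 0, from -1.99 to 3.69. Ependymal-like cells gave 2.66, 3.52 and 3.69 and tanycyte-like cells -1.99, -1.29 and -1.21. In the other 8 classes the libraries were mixed in direction.

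Over all kept cells binned by UMIs, Malat1 in CPM of nonmitochondrial UMIs was lowest in cells of 500 to 1000 UMIs (13042, 10570 and 22531), highest in cells of 2000 to 4000 UMIs (60332, 62146 and 68255) and lower again in cells of 16000 or more (31604, 32859 and 33700.4). This order held in all 3 libraries. Meg3 was 877, 1016 and 2583 in the lowest bin and 1786, 1854 and 1997 in the highest. The mix of classes differs between these bins.

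Cells of the same class and library were next compared by the mitochondrial share of their UMIs, and the mean ratio was above 1 for all 6 members. The contrast set cells with 10% to 20% mitochondrial UMIs against cells with at most 5%. It gave 1.69 ± 0.47 for Snhg11, 1.5 ± 0.40 for Meg3, 1.11 ± 0.29 for Miat, 0.91 ± 0.34 for Neat1, 0.84 ± 0.30 for Rmst and 0.76 ± 0.37 for Malat1 (mean log2 ratio, SD, n = 3 libraries). All 6 means lay above the all-gene median of 0.22. Over all 12307 genes with a value, 8.64% were at least 1.5 times higher and 1.57% at least 1.5 times lower in each of the 3 libraries. Meg3, Snhg11, Miat and Rmst, 4 members of 6, were past as higher, and 0 as lower. Each library gave, for Snhg11, 1.31, 2.21 and 1.56, and for Meg3, 1.04, 1.72 and 1.73. Malat1 gave 1.18, 0.63 and 0.47 and was short of 1.5 times in the 15-day library, and Neat1 gave 0.90, 0.57 and 1.26 and was short of it in the 5-day library. The number of classes with enough cells in both bins was 6, 8 and 8 for Malat1 and 4, 4 and 4 for Rmst.

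By class, 18 of 21 Meg3 values and 18 of 21 Snhg11 values were above 0. For Malat1 it was 17 of 22, and the astrocyte-like class, with -0.11, -0.34 and -0.22, was below 0 in every library. Neuron-like cells gave 1.70, 2.24 and 0.84 for Malat1, 1.10, 1.93 and 0.93 for Meg3, 1.24, 1.71 and 0.99 for Snhg11 and 1.4, 2.00 and 1.62 for Miat. The bins of this class hold different clusters: the median mitochondrial percent was 13.4 in cluster 17 and 5.57 in cluster 18, whose levels differ as given above. The part of the clusters in these ratios was not tested. In astrocyte-like cells Meg3 gave -2.19, -0.04 and 2.36 and Snhg11 -1.10, 0.90 and 1.08, at levels from which no expression is read.

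Barcodes beyond the limit of 20% held 8.06, 8.33 and 7.98% of the nonmitochondrial UMIs of all deposited barcodes. They held 50.2, 50.5 and 49.5% of all Snhg11 UMIs, 38.7, 38.6 and 36.9% of Meg3 UMIs and 31.2, 30.2 and 33.9% of Miat UMIs. For Malat1 the percent was 11.5, 13 and 12.1, for Rmst 12.7, 11.8 and 12.7 and for Neat1 7.64, 10.2 and 11.5. In CPM of nonmitochondrial UMIs, Snhg11 went from 274, 329 and 554 in barcodes with 2% to 5% mitochondrial UMIs to 11097, 9868 and 9922 in those with 20% to 40%. Meg3 went from 555, 558 and 931 to 12623, 11491 and 10982, and Miat from 26.5, 31.5 and 21.5 to 332, 295 and 312. Malat1 went from 39736, 35169 and 44864 to 64060.2, 69283 and 83919 between the same bins and was 22684, 34004 and 32855 in barcodes with 40% or more. In that last bin 71.5, 69.3 and 71.6% of the barcodes had under 1% Malat1, against 10.3, 15.3 and 16.1% in the bin before it. Meg3 (11135, 7236 and 10023) and Snhg11 (8777, 7829 and 9117) were still high there. Cell classes are mixed in these bins, and the part of neurons in each bin was not tested.

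**Figure D3:**
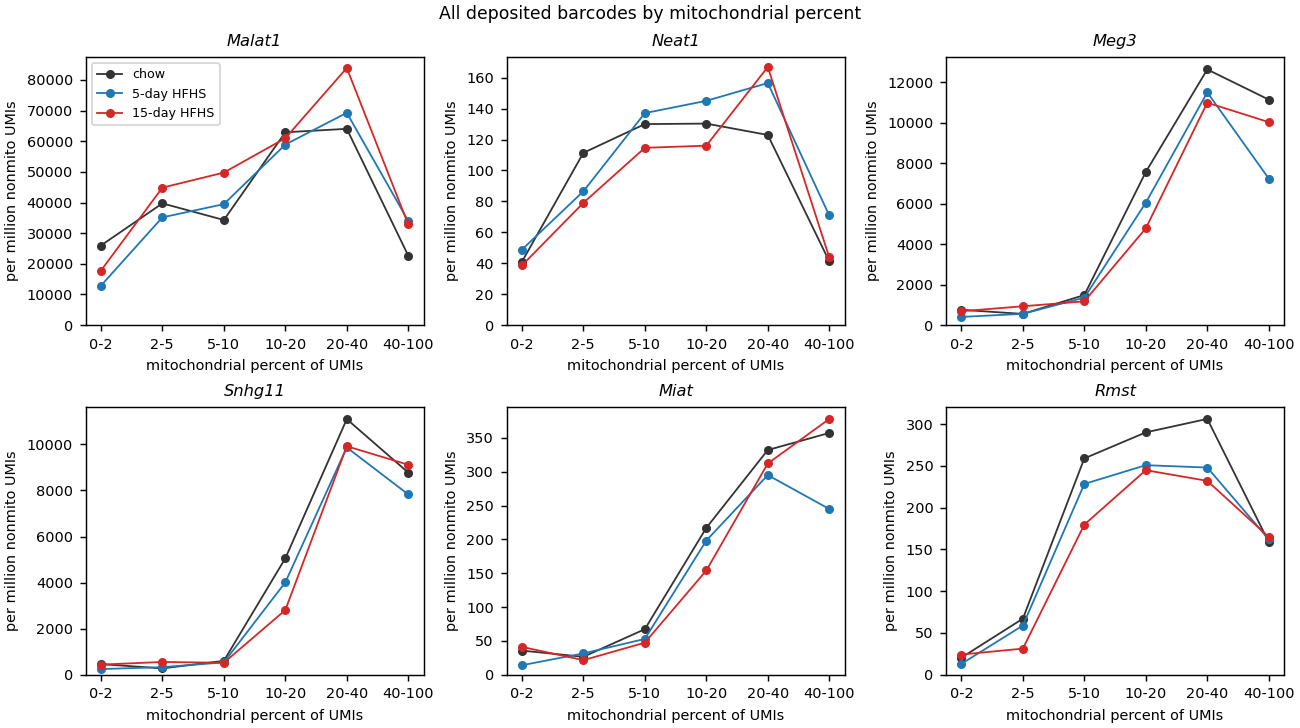
Each RNA in CPM of nonmitochondrial UMIs (y axis, from 0) in all deposited barcodes, binned by the mitochondrial percent of their UMIs (x axis), for the chow (black), 5-day HFHS (blue) and 15-day HFHS (red) libraries. Meg3, Snhg11 and Miat are several-fold higher in barcodes above 10% than below it. Every RNA but Miat is lower in the last bin than in the one before it in each library.

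Cells were also split by their own Malat1 share, within class and library, to see which RNAs went with it. The Malat1 counts themselves were left out of the total here. In the third of cells with the largest share, Neat1 was higher by 2.01 ± 0.49, Rmst by 1.84 ± 0.61, Miat by 1.76 ± 0.27, Meg3 by 0.99 ± 0.23 and Snhg11 by 0.49 ± 0.10 (mean log2 ratio, SD, n = 3 libraries). Over all 13659 genes, the median was 0.35, 19% were at least 1.5 times higher in each library and 1.38% at least 1.5 times lower. Neat1, Meg3, Miat and Rmst, 4 of the 5 other members, were past as higher. By the Mantel-Haenszel ratio Neat1 gave 0.63, 0.49 and 0.19 and was short of 1.5 times in the 5-day and 15-day libraries, whereas Snhg11 gave 2.04, 2.40 and 1.37 and was past, as were Meg3 (1.98, 2.25 and 1.65), Miat (1.74, 1.77 and 0.87) and Rmst (1.29, 1.14 and 0.91), so 4 were past again but with Snhg11 in place of Neat1. Median UMIs per cell were 6334, 7694 and 4421 in the third with the largest share and 3311, 3945 and 3438 in the third with the smallest, and without 6 clusters of a median under 2000 UMIs (a choice made after seeing the data) 2 of the 5 were past. Median mitochondrial percents were 5.99, 6.25 and 6.9 and 5.92, 6.99 and 6.73 in the same order.

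Neuron-like cells were clustered again without the members, and 4 subclusters had at least 20 cells in each library. Subcluster 4 (57, 45 and 74 cells) was led by Meg3, Snhg11 and Miat. There Meg3 stood at 26686, 29422 and 26176 CPM, Snhg11 at 17955, 18377 and 16371 CPM and Miat at 1057, 1325 and 956 CPM, the highest of the 4 subclusters for all 3 RNAs. Its cells were shallow (median 2031 UMIs) with 5.34% mitochondrial UMIs. Subcluster 5 (52, 35 and 29 cells, led by Meg3, Malat1, Kcnq1ot1 and Snhg11) had 16882, 17588 and 17820.3 CPM of Meg3, 11866, 11773 and 10577 CPM of Snhg11 and the most Malat1, 44831, 41011 and 35798 CPM. It also held Neat1 at 124, 84 and 96.8 CPM, above the other 3 subclusters, and the glial transcript Apoe at 1245 CPM. Its 10 genes of largest fold included Vtn and Pdgfrb, known from mural cells.

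Subcluster 1 (34, 27 and 68 cells, led by Resp18, Ubb, Ndufa4 and Chchd2) was deep, with a median of 24224 UMIs. Its Meg3 level was 3993, 4032 and 5414 CPM, its Snhg11 level 3414, 3361 and 4344 CPM and its Miat level 51, 64.5 and 52.2 CPM, below subclusters 4 and 5 in every library. Neat1 in subcluster 1 was 1.92, 4.67 and 7.35 CPM, with Apoe at 207 CPM. Subcluster 6 (62, 77 and 55 cells, led by Ubb, Hspa8, Ppia and Mt3) was the shallowest, at a median of 914 UMIs, with Meg3 at 1122, 896 and 2852 CPM and Malat1 at 3532, 1231 and 17443 CPM. Its 10 genes of largest fold, taken against the other neuron-like cells, included the oligodendrocyte genes Mobp and Mbp and no neuronal marker. Neuronal genes were present all the same, with Snap25 at 644 CPM beside 659 CPM in subcluster 1, Gad1 at 324 CPM and Oxt at 5036 CPM. What these cells are was not tested, so their values are not read as those of a neuron type. They remain part of the neuron-like values. Subcluster 8, led by Npy and Agrp, had 6, 31 and 33 cells and so too few in the chow library, and held 2258 and 2886 CPM of Meg3 in the 5-day and 15-day libraries.

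**Figure D4:**
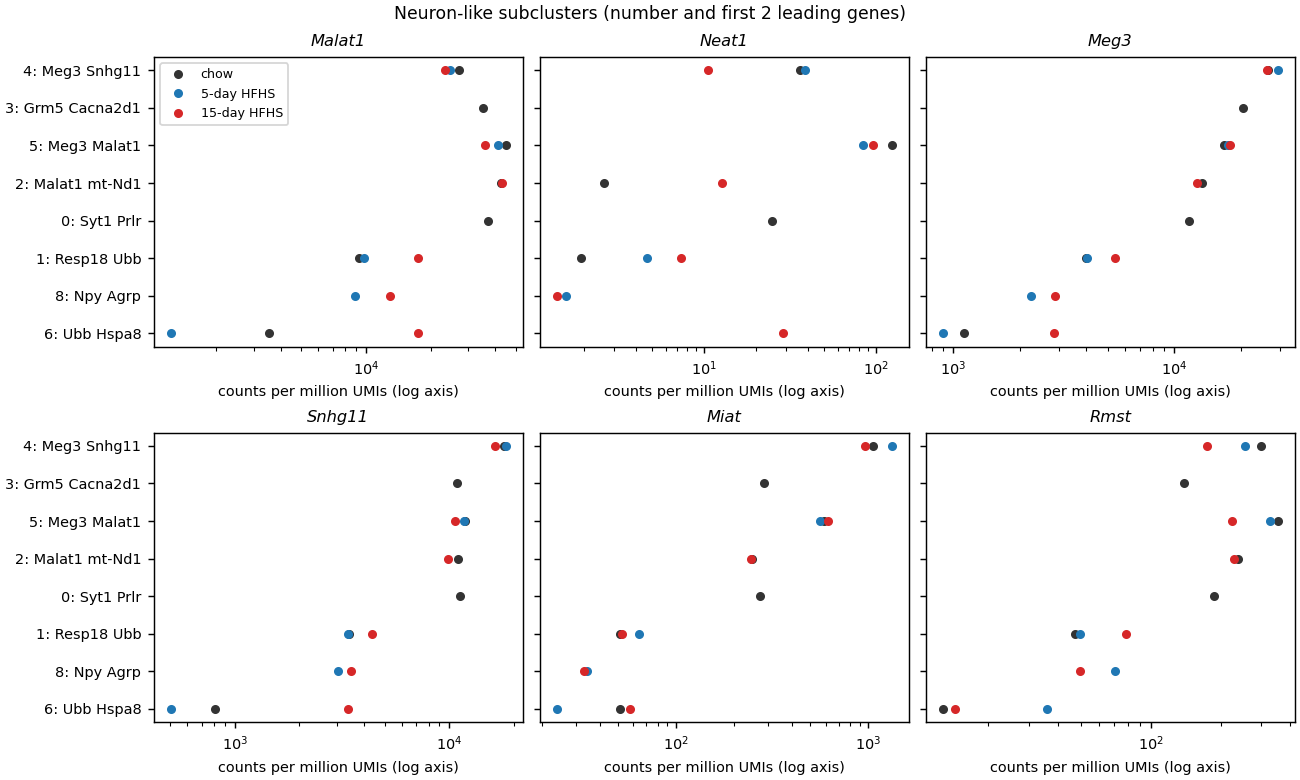
Level of each RNA (x axis, CPM, log axis) in neuron-like subclusters (y axis, number and first 2 leading genes, ordered by Meg3) for the chow (black), 5-day HFHS (blue) and 15-day HFHS (red) libraries; libraries with fewer than 20 cells and values of 0 are not drawn. Meg3, Snhg11 and Miat are highest in subcluster 4, and Malat1 and Neat1 are highest in subcluster 5 among the 4 subclusters with enough cells in each library.

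Between diets, each HFHS library was set against the chow library within a class. A pair of member and class was considered where the libraries summed to 100 UMIs or more and either reached 30 CPM. It was past the size rule where the ratio was at least 1.5 and its 95% counting interval stayed clear of 1 by a set margin. The intervals cover counting error only, and the 2 comparisons share the chow library. In the 5-day comparison 45 of 60 pairs were considered, 2 were past as higher and 5 as lower, and over all genes 0.619% of 53120 pairs were past as higher and 0.777% as lower. In the 15-day comparison 45 pairs were considered, 4 were past as higher and 5 as lower, beside 1.57% and 2.1% of 53003 pairs over all genes. Some member pairs, such as those of Malat1, are counted often and have narrow intervals. Others past the rule rest on few UMIs, such as Meg3 in endothelial-like cells (77 in the chow and 157 in the 5-day library). Neat1 in COP-like cells had 146 and 59. The members share cells, so pairs are not independent.

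For Malat1, the most abundant of the 6, the 20 ratios lay between -0.45 and 0.59 on the log2 scale, and 1 of them was past the rule. That was the ependymal-like class, at 11215, 11437 and 16883 CPM, where the 15-day library stood above both others and the ratio to chow was 0.59 on the log2 scale (95% counting interval 0.57 to 0.61). The deep cluster 6 and the shallow cluster 10 of that class gave 12445, 12544 and 18533 and 970.2, 1083 and 1723 CPM. The ratio sat close to the limit, and it stayed past it in 13 of 20 alternative settings.

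Neat1 in neuron-like cells was 46.5, 26.7 and 16.3 CPM, from 204, 119 and 59 UMIs, lower in both HFHS libraries. The ratios were -0.80 on the log2 scale (95% counting interval -1.14 to -0.47) at 5 days and -1.51 on the log2 scale (95% counting interval -1.96 to -1.09) at 15 days. Of these UMIs, 325 came from subcluster 5, whose cells numbered 52, 35 and 29 and whose own Neat1 level was 124, 84 and 96.8 CPM. Oligodendrocyte markers summed to 1920.2, 873 and 895 CPM in neuron-like cells, and their part in the ratio was not tested. In COP-like cells Neat1 was 60.1, 30.3 and 37.6 CPM, from 146, 59 and 59 UMIs, with a 5-day ratio of -0.99 on the log2 scale (95% counting interval -1.45 to -0.55).

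Miat in neuron-like cells was 324, 238 and 178 CPM and Rmst 195, 155 and 111 CPM. The 15-day ratios were -0.86 on the log2 scale (95% counting interval -1.0 to -0.73) for Miat and -0.81 on the log2 scale (95% counting interval -0.99 to -0.64) for Rmst, both past the rule as lower. Malat1, Meg3 and Snhg11 in the same cells had 15-day ratios of -0.24, -0.47 and -0.51, lower but short of it. In this class 5.51% of 6883 genes were past as higher and 10.5% as lower, the most of the 10 classes. Cluster 17 made up 67.7, 47 and 56.1% of the neuron-like cells. Within cluster 17, Miat was 451, 485 and 423 CPM, Rmst 267, 276 and 188 CPM and Neat1 67.4, 57.4 and 35.8 CPM. With the same mix of clusters in each library, the 15-day ratio of Miat was -0.11 and that of Rmst -0.43, both short of the rule. The marker sum of neurons was 6419, 7446 and 8162 CPM.

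Cluster 17 was named by 4 neuronal markers among its leading genes by difference in mean, and by 2, too few for a name, when leading genes were ranked by t statistic, a choice added after seeing the data. Without it, the 15-day ratios in neuron-like cells were 0.98 for Neat1, -0.42 for Miat and 0.59 for Rmst, so Neat1 and Rmst turned to higher and Miat was short of the rule. At 5 days Neat1 was then 0.17.

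The remaining pairs past the rule were of Meg3 and Snhg11 outside neuron-like cells. In astrocyte-like cells Meg3 was 71.9, 36.9 and 87.1 CPM and Snhg11 51.8, 25.6 and 63.6 CPM, lower together at 5 days, with ratios of -0.96 and -1.01 on the log2 scale. In endothelial-like cells Meg3 was 24.7, 61.9 and 47.3 CPM and Snhg11 27.5, 56.4 and 42.9 CPM, but 1 cell held 46.5% of the 5-day Meg3 UMIs and 1 cell 35% of the 5-day Snhg11 UMIs. Meg3 was past the rule there at both times (1.33 and 0.94) and Snhg11 at 5 days (1.03). Both 5-day values turned negative when no barcode was removed as a doublet. In oligodendrocyte-like cells Meg3 was 30.2, 16.8 and 41.3 CPM, past as lower at 5 days (-0.84), and also turned without doublet removal, and Snhg11 was 33.3, 27.9 and 50.3 CPM, past as higher at 15 days (0.60). There 1 cell held 27.2% of the 15-day Snhg11 UMIs, and without the cell with the most UMIs the ratio was 0.29, short of the rule. For Meg3 1 cell held 38.6% of the 5-day UMIs, and without the top cell its ratio was -1.37, with the call lost.

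Snhg11 was 55.2, 75.5 and 96.3 CPM in tanycyte-like cells, higher at 15 days by 0.80 on the log2 scale, and kept this call in 17 of 20 settings. Snhg11 was 63.3, 67.2 and 32.8 CPM in ependymal-like cells and 51.1, 52.1 and 27.9 CPM in microglia-like cells, lower at 15 days, with log2 ratios of -0.95 and -0.88. In these 2 classes the cell with the most Snhg11 UMIs held 34% and 32.3% of those of the chow library, and neither call held without that cell. The neuron marker sums of the classes in the 3 libraries were 470.2, 340.4 and 600.0 CPM in astrocyte-like, 167, 161 and 324 CPM in endothelial-like and 237, 223 and 288 CPM in tanycyte-like cells. Their part in these ratios was not tested. The plot of ratios to chow shows most considered pairs between the 1.5-fold lines.

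**Figure D5:**
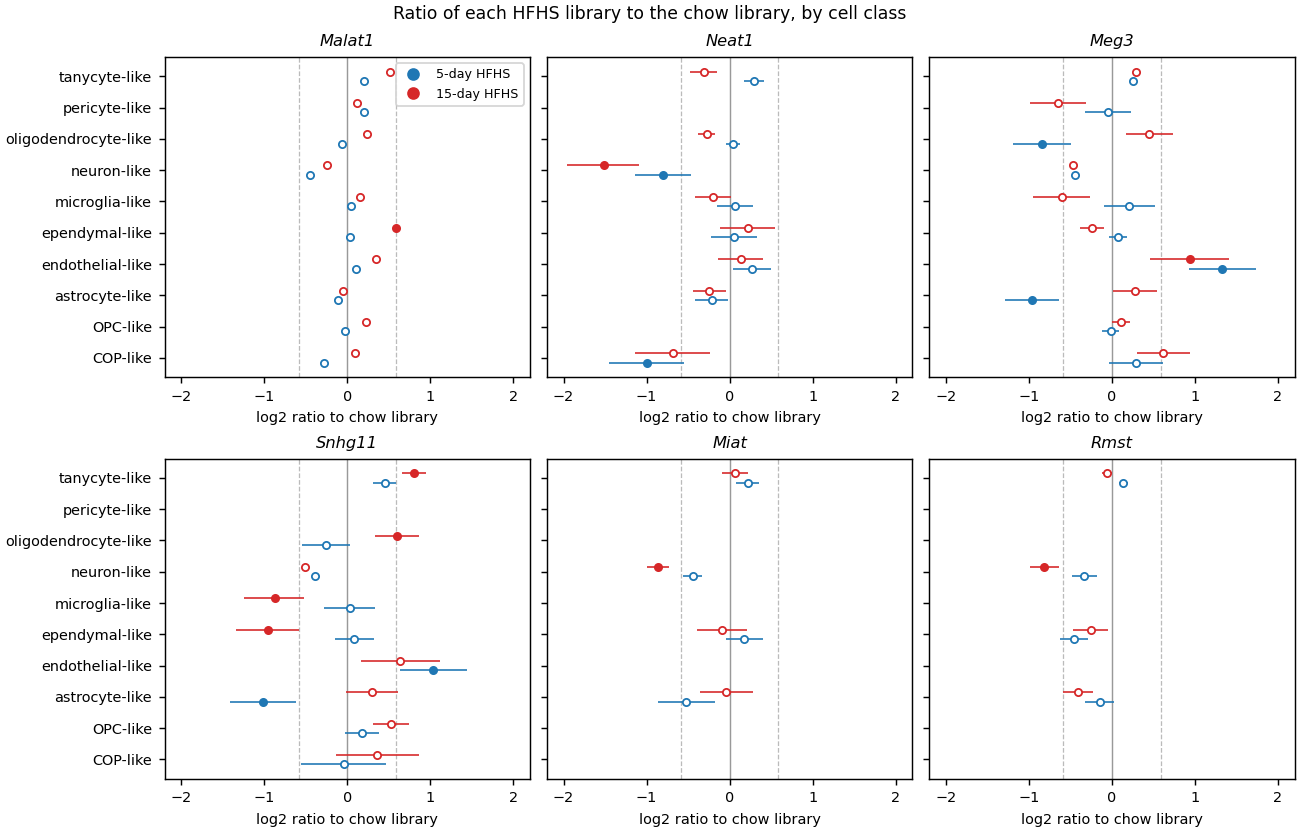
Log2 ratio of each HFHS library to the chow library (x axis) in 10 cell classes (y axis) for the 5-day (blue) and 15-day (red) comparison, with 95% intervals that cover counting error only; filled points are past the size rule, open points are not, dashed lines mark 1.5-fold, and pairs not considered are not drawn. Malat1 points lie between the 1.5-fold lines except in 15-day ependymal-like cells, and the 15-day points of Neat1, Miat and Rmst in neuron-like cells are filled on the lower side.

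Other long noncoding RNAs and the proteins of the bodies these RNAs form were read from lists. Of 26 other long noncoding RNAs matched by symbol, 17 reached the level needed, and 6 of these had all neuron-like values above every other class, beside 12.1% of all genes. Those 6, named because they make up the count, were Kcnq1ot1 (922 CPM in neuron-like cells, 279.7 CPM on average in the others), an imprinted antisense RNA, Mirg (122 CPM), a microRNA host of the Meg3 locus, Ftx (119 CPM), Mir124a-1hg (79.3 CPM), Tug1 (109 CPM) and Snhg12 (94.8 CPM). The highest of the list was 6330403K07Rik, with a mean of 1755 CPM over the classes and its top in tanycyte-like cells, followed by Kcnq1ot1 (344 CPM) and 1810058I24Rik (118 CPM). In the contrast of mitochondrial percent, 5 of 20 were past as higher and 0 as lower, beside 8.64% and 1.57% of all genes, with a median of 0.43 beside 0.22. In the contrast of the Malat1 share, 8 of 21 were past as higher, beside 19% of all genes, with Kcnq1ot1 at 2.32.

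Of 20 nuclear speckle proteins, the neighbours of Malat1, 10 were past as higher in cells with a large Malat1 share and 0 as lower, beside 19% and 1.38% of all genes, with a median of 0.72 beside 0.35 for all genes. Among them, Pnisr gave 1.43 and Son, a scaffold of the speckle, 0.89. Of 20 paraspeckle proteins, the neighbours of Neat1, 4 were past as higher, a share near the 19% of all genes, with a median of 0.46. The most abundant speckle proteins were Ddx5 (771 CPM), Son (755 CPM) and Srrm2 (452 CPM), and the abundant paraspeckle proteins included Hnrnpk (398 CPM) and Sfpq (219 CPM). Sfpq, which binds Neat1, was highest in OPC-like cells, the class with the least Neat1. This top class was not particular to Sfpq: Nono, Pspc1 and Hnrnpk shared it, as did the speckle genes Srrm2 and Srsf2. All these values are levels of RNA, not of protein. Of the Dlk1-Dio3 locus, Dlk1 stood at 628 CPM in neuron-like cells and 29.8 CPM on average elsewhere, and its contrast of mitochondrial percent was 1.83. The partners of the members that bind RNA or chromatin were led by Qk (1248 CPM, highest in COP-like cells), Hnrnpa2b1 (571 CPM) and Sox2 (213 CPM, highest in ependymal-like cells).

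Between diets, 0 of 179 paraspeckle pairs and 0 of 197 speckle pairs were past at 5 days, beside 0.619% of all pairs as higher and 0.777% as lower. At 15 days 5 of 176 and 3 of 196 were past as lower and 0 as higher, shares near the 2.1% of all pairs past as lower, or the 10.5% in neuron-like cells. The largest speckle ratios were those of Pnisr, a splicing-related protein (501 CPM in chow and 299 CPM at 15 days), Luc7l2 (651 and 399 CPM) and the kinase Clk4 (115 and 76.8 CPM), all in neuron-like cells. The mix of clusters in this class differed between libraries, as given above, and its part in the ratios of listed genes was not tested. The paraspeckle ratios past the rule included those of Hnrnpk in OPC-like cells (694 and 435 CPM), Cpsf6 in neuron-like cells (137 and 85.9 CPM) and Dazap1 in COP-like cells (129 and 82.8 CPM). Of the other long noncoding RNAs, 2 pairs were past as higher and 3 as lower of 88 at 5 days, and 4 and 5 of 89 at 15 days, beside the 0.619% and 0.777%, and 1.57% and 2.1%, of all pairs. In neuron-like cells at 15 days Mirg (158 and 92.3 CPM), Ftx (148 and 89.2 CPM) and Kcnq1ot1 (1135 and 728 CPM) were lower with Miat. The Miat ratio was short of the rule with the same mix of clusters in each library, and that setting was not run for the listed genes. Snhg6, another small nucleolar RNA host, was higher there (32.6 and 57.2 CPM). 6330403K07Rik went both ways: at 5 days it was lower in oligodendrocyte-like (-1.08 on the log2 scale), astrocyte-like (-0.99) and OPC-like cells (-0.59) and higher in COP-like cells (0.74). At 15 days it was higher in pericyte-like (1.07) and endothelial-like cells (0.97) and lower in ependymal-like cells (-0.88). Qk, a splicing regulator known mainly from glia, was 219, 110.1 and 98.9 CPM in neuron-like cells. Both ratios of Qk were past as lower (-0.99 and -1.15), beside the oligodendrocyte marker sums of this class given above, whose part was not tested.

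The genes whose levels went most like each member were found by Pearson correlation over 30 class-by-library values of log2(CPM + 1), with gene models and mitochondrial and ribosomal protein genes left out. The values of a library share a suspension and those of a class share a cluster, so r is a description. Most like Malat1 were Dnajb12 (r = 0.89), Nudt13 (r = 0.86) and Tmem97 (r = 0.86). For Neat1 they were Sort1 (r = 0.83), Arrdc2 (r = 0.79) and Cd82 (r = 0.79), and Sort1 encodes sortilin, a sorting receptor. For Meg3 they were Mirg (r = 0.94), Hap1 (r = 0.94) and Ttc3 (r = 0.93), of which Mirg is a neighbour of Meg3 on the same imprinted strand. For Snhg11 they were Zwint (r = 0.96), Phf24 (r = 0.95) and Celsr3 (r = 0.95). For Miat they were Zcchc18 (r = 0.97), Plekha7 (r = 0.95) and Gabrg3 (r = 0.95), and Gabrg3 encodes a GABA-A receptor subunit. For Rmst they were Nkx2-1 (r = 0.96), Lrrc9 (r = 0.95) and Tenm3 (r = 0.93), and Nkx2-1 encodes a transcription factor of the ventral hypothalamus. Of these 18 genes 4 were among the first 3 by Spearman correlation and 8 with 10 added in place of 1. Among the members, Miat and Rmst gave r = 0.86, Meg3 and Snhg11 0.82, Meg3 and Miat 0.75, and Neat1 and Meg3 -0.65. Malat1 and Neat1, neighbours on chromosome 19, gave 0.23.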

How the data were processed

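The data were UMI counts per gene and barcode from Chromium 3′ v3.1 libraries of 3 mouse pools, deposited by the authors as raw counts with no normalization. Per the file headers the matrices were written by software of version 3.1.0, and per the submitters' processing notes Cell Ranger, SAMtools, Scanpy 1.4.4 and GRCm38 were used; the annotation and barcode calling are not given in the sources used here.

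The members and lists were chosen with earlier results of these data known. Barcodes needed 500 genes and at most 20% mitochondrial UMIs, and the highest Scrublet scores (0.8% per 1000 barcodes) were removed, since the automatic threshold marked 0, 54 and 84 barcodes. Cells were clustered with Scanpy 1.11.5 on 3000 variable genes without the members (40 components, 15 neighbours, Leiden resolution 1). A cluster was named where at least 3 markers stood among its 50 leading genes by difference in mean log-normalised expression; this ranking, and leaving cluster 1 unnamed because its ependymal and tanycyte markers were close, were chosen after seeing the data. Levels are summed UMIs as CPM of all UMIs; intervals are conditional binomial, Poisson or Clopper-Pearson (95%) and cover counting error only. Classes or libraries entered a contrast with at least 20 cells in both bins. Named genes were the members, the 3 genes most correlated with each, and of each list up to 4 past the size rule with the largest ratio and the 3 of highest level; some genes are not reported here. Sequences and positions came from GENCODE vM21 transcripts. The steps were tested on simulated data (Python 3.11.15, NumPy 2.4.6, SciPy 1.17.1, pandas 2.3.3). Alternatives were other filters, clusterings, denominators, thinning, size rules and bins, and each library or top cell left out.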

Additional observations from a re-analysis of the deposited data

Results flagged for a closer look

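Members were listed here where the 3 libraries of some class all went one way and those of another class all went the other way. For each contrast the class with the highest mean above 0 was set beside the class with the lowest mean below 0. The differences are therefore picked extremes, and they were not tested. For Malat1 against mitochondrial percent, ependymal-like cells gave 2.26, 1.87 and 1.22 and astrocyte-like cells -0.11, -0.34 and -0.22, a difference of means of 2.01 on the log2 scale. Malat1 was above 0 in all 3 libraries in 5 classes and below 0 in 1.

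Against depth within a class, 5 members had such classes on both sides. For Malat1 the 2 classes given were the only ones with 1 direction in all libraries, and the other 8 were mixed. For Malat1, ependymal-like cells gave 2.66, 3.52 and 3.69 and tanycyte-like cells -1.99, -1.29 and -1.21, a difference of means of 4.78. For Neat1, microglia-like cells gave 3.80, 2.63 and 1.80 and tanycyte-like cells -1.89, -1.08 and -1.71, a difference of means of 4.30. For Miat, ependymal-like cells gave 3.32, 3.37 and 2.67 and tanycyte-like cells -1.22, -1.20 and -1.68, a difference of means of 4.49. The clusters of differing depth within the ependymal-like and microglia-like classes are described above. For Meg3, ependymal-like cells gave 1.85, 2.16 and 0.50 and COP-like cells -2.48, -0.92 and -3.28, a difference of means of 3.73. For Snhg11, oligodendrocyte-like cells gave 0.63, 1.05 and 0.75 and COP-like cells -2.37, -2.2 and -4.10, a difference of means of 3.70. As given above, no expression is read from the levels of Snhg11 in these 2 classes or of Meg3 in COP-like cells.

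Cluster 1, which was left unnamed and so entered no comparison by class, held a difference between libraries. Its Malat1 level was 1188, 1071 and 21013 CPM, a 15-day to chow ratio of 4.14 on the log2 scale, with 25.1% of the 15-day UMIs in 1 cell. Meg3 was 82.7, 53.4 and 366 CPM and Snhg11 68.7, 45.7 and 128 CPM there, with ratios of 2.15 and 0.89. With 1 library for each diet, diet and library cannot be told apart.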

How the results depend on the processing

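The diet ratios depended most on the processing. At 5 days the pairs past the size rule as higher numbered 2 in the main settings, 0 with a limit of 10% mitochondrial UMIs, 4 with at least 1000 genes per barcode, 1 with no doublets removed, 0 by the mean of per-cell CPM, 0 thinned to 1000 UMIs and 1 without the cell with most UMIs of the member. Those past as lower numbered 5 in the main settings, 3 with no limit on mitochondrial UMIs, 3 at resolution 2, 0 thinned and 1 with a ratio of at least 2. At 15 days the pairs past as higher went from 4 to 2 by per-cell CPM, 0 thinned, 2 without the top cell and 0 with a ratio of at least 2. Those past as lower went from 5 to 3 with the 10% limit, 2 with no doublets removed, 1 by per-cell CPM, 1 thinned, 3 without the top cell, 1 with a ratio of at least 2 and 2 with leading genes by t statistic. Thinning leaves fewer UMIs, a higher ratio is a stricter rule, and the cause of the other differences was not tested.

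Reversed log2 ratios were, with no doublets removed, -0.16 for Meg3 and -0.050 for Snhg11 in endothelial-like cells and 0.49 for Meg3 in oligodendrocyte-like cells at 5 days. By per-cell CPM they were -0.035 and -0.12 for Meg3 and Snhg11 in endothelial-like cells at 5 days and 0.077 for Snhg11 in ependymal-like cells at 15 days. Thinned, Snhg11 gave -0.65 and 0.62 in these 2 classes. With leading genes by t statistic, Neat1 in neuron-like cells gave 0.17 and 0.98, and Rmst 0.59 at 15 days.

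Of the members at least 1.5 times higher in deep cells, 0 became 1 without the chow library (range 0 to 1 over the libraries left out), and of those lower, 0 became 1 without the 5-day library (range 0 to 1), 1 without 6 clusters of a median under 2000 UMIs and 2 by the Mantel-Haenszel ratio. Without the same clusters, 2 members in place of 4 were past in the contrast of the Malat1 share. Of the 18 genes most like the members, 4 were shared by Spearman correlation and 8 with 10 added.

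The other 189 alternative counts stayed within 1.5 times of the main ones. Of the single values 561 were the same, 68 lost their call and 68 moved. COP-like cells could not be compared with the 10% limit, with at least 1000 genes (pericyte-like cells as well) or with the members in the clustering, and the contrast of mitochondrial percent could not be run with the 10% limit. No paired analysis was possible because each diet has 1 library. Depth limits Miat and Rmst outside their leading classes, where few UMIs stand behind a level.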
